A study of Mus musculus with 4 samples.

Results

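Collagens, laminins and integrins were followed in the gastric corpus epithelium of wild-type mice given a high dose of tamoxifen. Members were the genes whose array symbol starts with Col and a digit, with Lama, Lamb or Lamc and a digit, or with Itga or Itgb and a further digit or letter. The rule found 81 of 18193 genes, read by 166 probe sets, and where a gene had several, the one brightest on average across the 4 arrays stood for it. They comprised 42 collagen chains, 10 laminin chains, 16 integrin alpha chains, 9 integrin beta chains and 4 genes that only carry a related name (Itgb1bp1, Itgb1bp2, Itgb3bp and Itgbl1). The choice used symbols and no measured difference.

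The 4 groups had 1 array each, hybridised with RNA pooled from 3 mice. Tamoxifen, a selective estrogen receptor modulator, was given into the peritoneum at 5 mg per 20 g of body weight, and stomachs were taken 12 hours, 2.5 days or 4.5 days later. Vehicle mice received 10% ethanol in 90% sunflower seed oil and were sampled at 2.5 days only. All mice were wild type and 6 weeks old when treated; the labels name C57BL/6, BALB/c and FVB/N, and tie no strain and neither 1 nor 3 days of injection to an array. With pooled RNA on a single array per group, the spread between mice is unknown, no p-value can be given, and every comparison describes these pools.

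Collagens, laminins and integrins build and read the extracellular matrix. Fibrillar collagens and type VI collagen form the stroma, while type IV collagen and laminins are the networks of the basement membrane on which gland epithelium and smooth muscle rest. Integrins are receptors of an alpha and a beta chain that bind these networks, and those carrying the beta 2 chain are restricted to leukocytes.

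Levels are log2 expression values and differences are log2 differences of a tamoxifen array from vehicle, so 1 is 2-fold. A gene counted as expressed in a comparison if the brighter array was at or above its own median, and as higher or lower if it was also at least 2-fold apart. Of the 81 genes, 55 lay at or above the median on all 4 arrays and 21 on none. The array medians lay between 5.30 and 5.34. Differences of expressed genes between tamoxifen at 4.5 and 2.5 days, the closest pair, had a robust SD of 0.15. Those from vehicle had a robust SD of 0.27 at 12 hours, 0.35 at 2.5 and 0.39 at 4.5 days. Among 22 member genes with several probe sets above the median, the probe sets of 1 gene differed by a median of 0.21, 0.14 and 0.19 at the 3 times. RNA of other tissues was on the arrays: 10 of 10 smooth muscle and 9 of 10 fibroblast markers were above the vehicle median. The 12-hour array stood apart by pancreatic acinar genes, 7 of 8 of which were higher, and squamous genes, 6 of 9 of which were lower.

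Most matrix and adhesion genes lay within 2-fold of vehicle at every time, and the few that did not belonged to different classes. At 12 hours, 2 members were higher (Itgb6 and Itgax) and 1 was lower (Col4a4) among 59 expressed, where 0.996% of all expressed genes were higher and 1.92% lower. At 2.5 days, 1 was higher (Itgax) and 2 were lower (Col7a1 and Col4a4) of 59, against 3.32% and 1.94% of all expressed genes. At 4.5 days, 3 were higher (Itgax, Col18a1 and Lama1) and 2 lower (Col4a4 and Col7a1) of 60, against 3.80% and 2.72%. These counts are too small to read against the background. At 1.5-fold, 4 members were higher and 2 lower at 12 hours, against 3.37% and 5.66% of expressed genes. By that rule 6 were higher and 3 lower at 2.5 days, against 9.69% and 6.03%, and again 6 and 3 at 4.5 days, against 10.7% and 8.21%. Members past 1.5-fold but not 2-fold were Col4a1, Itgal and Itgb3bp at 12 hours, Col18a1, Col6a4, Itgal, Itgb2, Itgb6 and Itga7 at 2.5 days, and Col6a4, Itgal, Itgb2 and Itga7 at 4.5 days. The median difference over all 81 members was -0.07, 0.04 and 0.16 at the 3 times, where that of all genes was -0.02 each time. Arrays centred on hybridisation controls gave 3 members higher at 2.5 days, with Col18a1 and Itgb2 added, and 6 at 4.5 days, with Itgb2, Itgal and Col6a4 added. Centring moves all genes alike, and the share of all expressed genes past 2-fold was not computed under it. All 3 comparisons share the vehicle array, so a deviation of that array would appear in each.

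**Figure D1:**
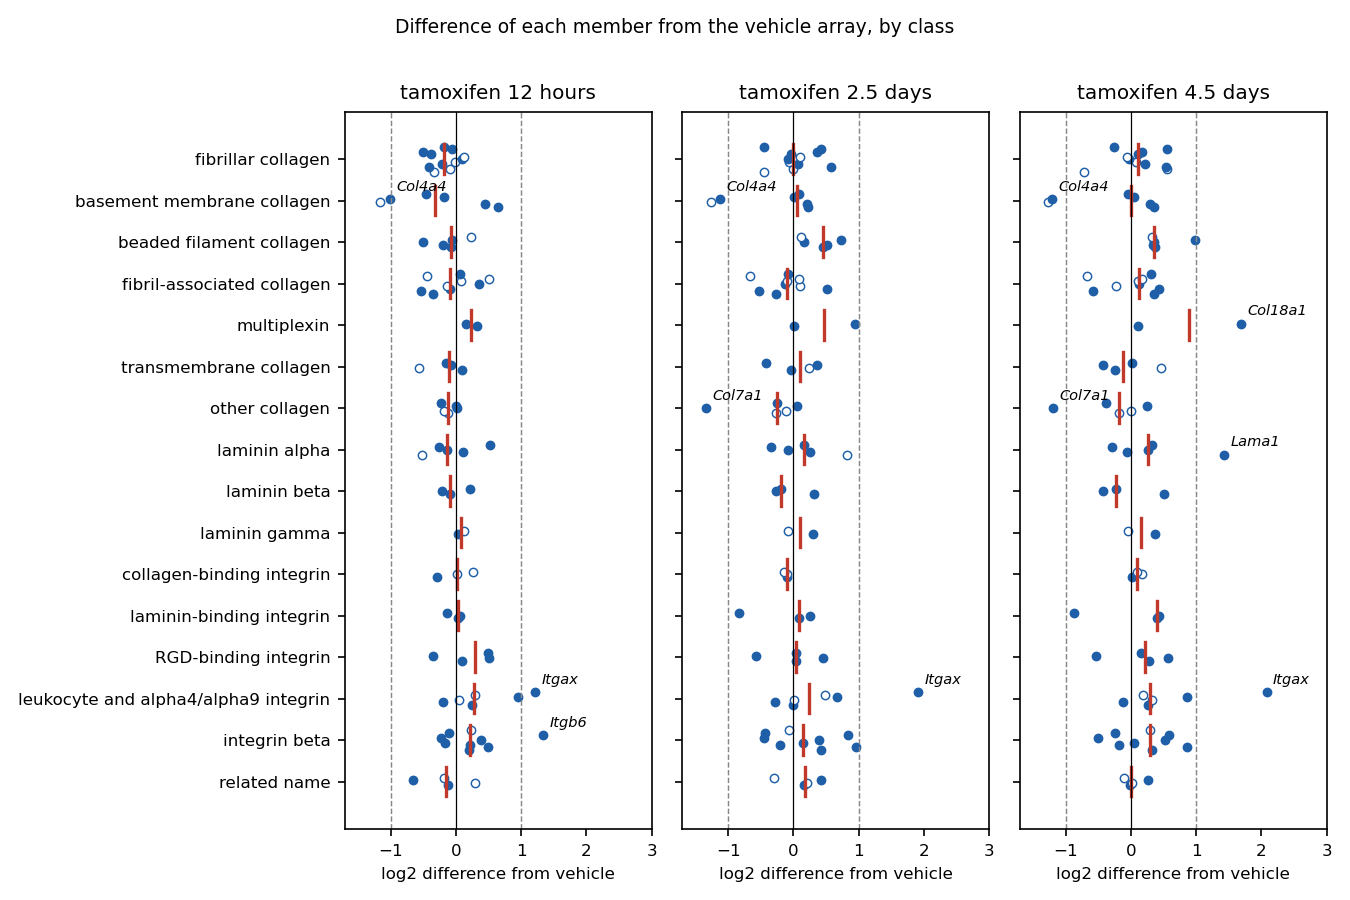
Difference of each of the 81 members from the vehicle array on the log2 scale, by class, at 12 hours, 2.5 and 4.5 days of tamoxifen (filled points, expressed in that comparison; open points, not; red bars, class medians over all members; dashed lines, 2-fold). Most points lie between the dashed lines, and the named genes are those that are expressed and past them.

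Fibrillar collagens, the rope-like chains of interstitial matrix, lay a little below vehicle at 12 hours and near or above it later. Of 11 chains, 7 were expressed and none passed 2-fold at any time; the median over all 11 was -0.18, -0.01 and 0.12. Col1a1, a chain of type I collagen, had a level of 9.66 in vehicle and 9.24, 10.24 and 10.20 at 12 hours, 2.5 and 4.5 days of tamoxifen. The 12-hour array was the lowest of the 4, and the later arrays were 0.58 and 0.54 above vehicle. Its partner Col1a2 was at 12.60 in vehicle and 12.39, 12.67 and 12.82 on the tamoxifen arrays. The other probe sets of Col1a2, also above the median on every array, disagreed. The brighter gave -0.27, 0.48 and 0.52, and the dimmer 0.13, 0.21 and -0.05. Col3a1, the type III chain, was at -0.38, -0.04 and 0.12, with levels of 12.70 to 13.20 over the 4 arrays. Col5a1 and Col5a2, chains of the type V collagen that sets fibril width, differed by -0.50, 0.36 and 0.17 and by -0.07, 0.43 and 0.55. The direction for Col5a1 at 12 hours depended on the probe set: of its other probe sets, both above the median on all arrays, the dimmest gave 0.30 and the other -0.20. Col5a3 was at -0.18, -0.45 and -0.25, and Col27a1 ranged from 7.20 to 7.37 over the 4 arrays. Col2a1, Col11a1, Col11a2 and Col24a1, the first 3 of which are cartilage chains, were below the median on every array.

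Type VI collagen, which forms beaded filaments around cells, was lowest on the 12-hour array in all 4 of its expressed chains, and Col6a5 was below the median on every array. Col6a1 had a level of 10.18 in vehicle and 10.10, 10.64 and 10.54 at 12 hours, 2.5 and 4.5 days. Col6a2 had 10.47 in vehicle and 10.27, 10.99 and 10.81 on the tamoxifen arrays, and Col6a3 had 9.91 in vehicle and 9.41, 10.07 and 10.26. Thus the chains of the classical heterotrimer were 0.07 to 0.50 below vehicle at 12 hours and 0.16 to 0.52 above it later. Col6a4, a chain with a long N-terminal region, lay furthest above, at 6.88 in vehicle and 6.82, 7.62 and 7.86 on the tamoxifen arrays. Its second probe set, below the median on every array, gave -0.27 and 0.00 at 2.5 and 4.5 days. None of the 4 chains passed 2-fold against vehicle.

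Without the vehicle array, the tamoxifen array at 2.5 days can be set against that at 12 hours. In this step 1 of 58 expressed members was 2-fold higher (Itgb3bp) and 1 lower (Col7a1), against 2.58% and 0.655% of expressed genes. At 1.5-fold, 9 of 58 expressed members were at least 1.5-fold higher and 2 lower, where 7.52% of all expressed genes were higher and 2.28% lower by that rule. Of the 9, 7 were collagens: Col1a1 at 0.996, Col5a1 at 0.86, Col6a4 at 0.80, Col18a1 at 0.79, Col6a2 at 0.72, Col6a3 at 0.66 and Col16a1 at 0.60. Other probe sets gave less for some of these: 0.56 for Col1a1 and 0.09 and 0.36 for Col5a1, all above the median on every array and under 1.5-fold, and -0.41 for Col6a4 from a dim one. For Col1a2, at 0.28 by the probe set used and so not among them, the other probe sets gave 0.75 and 0.08. Col7a1 (-1.35) and the integrin gene Itga7 (-0.69) were lower. From 2.5 to 4.5 days, 3 of 58 were 1.5-fold higher (Col18a1 at 0.75, Col12a1 at 0.62 and Lama1 at 0.61) and Col23a1 was lower at -0.79, against 0.933% and 1.17% of all expressed genes. The second Col18a1 probe set gave 0.63, and the other Col12a1 probe set above the median on every array gave 0.33, under 1.5-fold. For Col23a1 the other probe sets, below the median on every array, gave -0.35 and -0.01. Fibroblast markers had a median of -0.29, -0.29 and -0.28 against vehicle at the 3 times, with 1 of 10 lower at 12 hours (Lum) and none past 2-fold later. Pcolce, an enhancer of procollagen processing, was at -0.35, 0.31 and 0.65 against vehicle, below it at 12 hours and above it later, as was Col1a1. Other genes that process collagen differed from this. Serpinh1 was at -0.23, -0.29 and -0.23, Bmp1 at -0.38, -0.14 and -0.21 and P4hb at -0.34, -0.21 and -0.06, below vehicle each time. Plod3, at 0.27, 0.32 and 0.62, and Lox, at 0.72, 0.10 and 0.29, lay above it each time. The 12-hour array, which carried the pancreatic RNA, is part of this step, and how far that RNA moved these values was not tested.

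**Figure D2:**
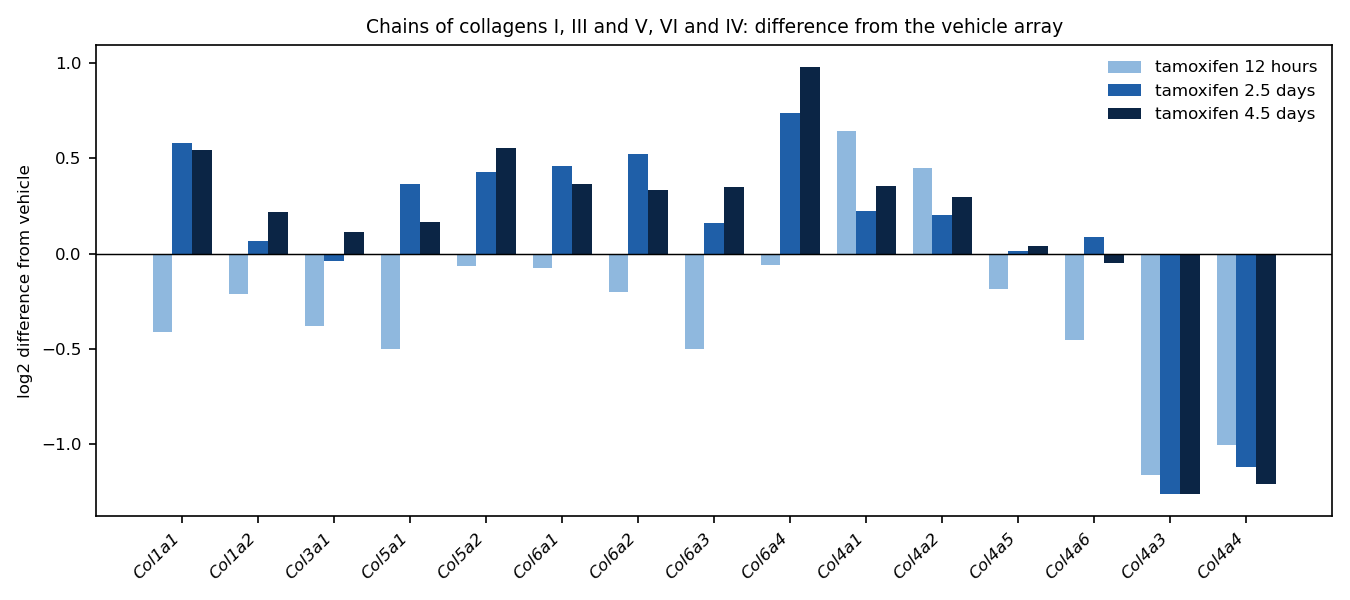
Log2 difference from the vehicle array of chains of collagens I, III, V, VI and IV at 12 hours, 2.5 and 4.5 days of tamoxifen, 1 array each. By the probe sets used, the type I, III, V and VI chains drawn lie below vehicle at 12 hours, Col4a1 and Col4a2 lie above vehicle at all 3 times, and Col4a3 and Col4a4 lie furthest below vehicle throughout.

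Type IV collagen is made of 6 chains whose genes lie in head-to-head pairs, each pair sharing the stretch between its starts: Col4a1 with Col4a2, Col4a3 with Col4a4 and Col4a5 with Col4a6. Col4a1 and Col4a2 lay above vehicle at all 3 times, and Col4a3 and Col4a4 below it. By the RefSeq windows (GRCm38.p6), Col4a1 and Col4a2 start 21 bases apart on opposite strands of chromosome 8, and Col4a6 and Col4a5 start 1343 bases apart on chromosome X. The windows run from 250 bases before to 50 bases after an annotated start and were found for 59 members. Shown are the Col4a2 window, which shares 78 bases with that of Col4a1, and the Col4a4 window, as starts of the pair above vehicle and of the pair below it. Capitals mark matches to any of 5 motifs, searched on both strands, none of which contains another. The TATA box was searched as the letters TATAAA and the CCAAT box by the letters of its name. The GC box, which Sp1 binds, was searched as the letters GGGCGG. The AP-1 site was searched as the letters TGANTCA, where N is any base. The site of PU.1, a factor of myeloid cells, was searched as the letters GAGGAAGT.
Col4a2, chr8:11312555-11312854, plus strand: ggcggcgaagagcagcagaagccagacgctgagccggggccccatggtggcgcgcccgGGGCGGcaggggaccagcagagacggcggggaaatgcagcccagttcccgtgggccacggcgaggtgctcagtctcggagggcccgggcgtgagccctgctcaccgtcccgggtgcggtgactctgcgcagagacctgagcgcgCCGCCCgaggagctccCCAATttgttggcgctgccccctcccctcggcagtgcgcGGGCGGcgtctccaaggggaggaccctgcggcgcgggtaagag
Col4a4, chr1:82586800-82587099, minus strand: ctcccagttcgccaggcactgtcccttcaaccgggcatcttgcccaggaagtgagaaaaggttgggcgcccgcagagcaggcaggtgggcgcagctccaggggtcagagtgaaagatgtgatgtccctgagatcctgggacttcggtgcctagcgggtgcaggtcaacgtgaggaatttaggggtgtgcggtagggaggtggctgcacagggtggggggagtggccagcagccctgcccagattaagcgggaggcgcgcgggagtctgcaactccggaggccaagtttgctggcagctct
The Col4a2 window held 3 GC boxes and 1 CCAAT box, and the Col4a4 window held none of these letters. Of all 32851 windows 35.7% held a GC box, 37.4% a CCAAT box, 13.6% a TATA box, 7.81% an AP-1 site and 3.20% a PU.1 site. A match is a description of the letters only.

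Col4a1 and Col4a2, which form the type IV network found in nearly every basement membrane, lay above vehicle at each time. Col4a1 had a level of 10.92 in vehicle and 11.56, 11.14 and 11.27 at 12 hours, 2.5 and 4.5 days. Col4a2 had 9.90 in vehicle and 10.35, 10.10 and 10.19. Both were highest at 12 hours, by 0.64 and 0.45, and neither passed 2-fold. That array carried the pancreatic RNA and had lower squamous genes, and the part of either in these values was not tested. The second probe set of Col4a1 gave 0.47, 0.19 and 0.38, in the same order.

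Col4a4 was the 1 collagen that fell past 2-fold on all 3 tamoxifen arrays. It had a level of 5.89 in vehicle and 4.88, 4.77 and 4.68 at 12 hours, 2.5 and 4.5 days, so that it passed the array median in vehicle alone. Its differences were -1.004, -1.12 and -1.21. A second probe set gave -1.46, -1.86 and -1.71, and another, dim on all arrays at 3.00 to 3.18, gave 0.05, -0.13 and -0.01. Averaged over the 3 probe sets the differences were -0.80, -1.04 and -0.98, but the averaged level was below the median on every array, so that it was not counted at any time. With arrays centred on hybridisation controls the probe set used was at -0.99 at 2.5 days. Col4a3, its partner, had 5.25 in vehicle and 4.09, 3.99 and 3.99 on the tamoxifen arrays. Its differences of -1.16, -1.26 and -1.26 were not counted, as it was below the median on every array. Both genes thus lay on the dim part of the scale. Col4a5 was at -0.18, 0.01 and 0.04 and Col4a6 at -0.45, 0.09 and -0.05. The second Col4a6 probe set, above the median on every array, gave 0.20, -0.002 and 0.08, so the direction at 12 hours depended on the probe set.

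Col7a1, which encodes the anchoring fibrils that fasten basement membrane to stroma, was lower at the later times only. Its level was 6.78 in vehicle and 6.79, 5.44 and 5.59 at 12 hours, 2.5 and 4.5 days. Vehicle and 12 hours lay 0.01 apart, and both later arrays lay close to the array median. The differences were -1.34 and -1.19 at 2.5 and 4.5 days, from 1 probe set. The anchoring fibril is a feature of stratified epithelium, and squamous genes, 9 of 10 measured, had medians of -2.04, -0.02 and 0.03 at the 3 times. Of the 9, 6 were lower and 1 higher at 12 hours, 2 lower and 1 higher at 2.5 days, and 1 lower and 1 higher at 4.5 days. The 2 lower at 2.5 days were Krt4, at -6.15, -1.16 and -1.07, and the cornified envelope gene Lor, at -5.32, -1.11 and -0.87. Krtdap, the brightest in vehicle, was at -7.15, -0.54 and -0.37, and the basal keratin Krt5 at -1.07, 0.07 and 0.03. Others lay above vehicle at the later times. Krt14 was at -2.04, 0.60 and 0.42, Sprr1a at 1.14, 0.30 and 0.77 and Ivl at 0.07, 1.98 and 1.54. The log2 of the summed level of the 9 was 13.19 in vehicle and 12.16, 12.77 and 13.03 on the tamoxifen arrays. The part of squamous tissue in the Col7a1 value was not tested.

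Col18a1, a multiplexin of basement membranes whose C-terminal fragment is endostatin, had the largest increase of any collagen here. Its level was 8.56 in vehicle and 8.72, 9.50 and 10.26 at 12 hours, 2.5 and 4.5 days. It climbed at each tamoxifen time, and at 4.5 days it was 1.69 above vehicle, or 3.23-fold. At 2.5 days its difference of 0.94 was just under the limit. The second probe set gave 0.32, 0.94 and 1.57. Col15a1, the other multiplexin, was at 0.32, 0.00 and 0.11. Col18a1 has 2 annotated starts in the RefSeq windows; which one these transcripts used was not resolved. The upstream one is shown as the start of the collagen with the largest increase, with capitals as above.
Col18a1, chr10:77166481-77166780, minus strand: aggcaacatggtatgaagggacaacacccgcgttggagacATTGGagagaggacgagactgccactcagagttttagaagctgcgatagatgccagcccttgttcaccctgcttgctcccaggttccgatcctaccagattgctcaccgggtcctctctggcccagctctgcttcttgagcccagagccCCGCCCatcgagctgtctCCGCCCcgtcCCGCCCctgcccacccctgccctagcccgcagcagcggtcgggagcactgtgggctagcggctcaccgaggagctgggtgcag
It held 3 GC boxes and 1 CCAAT box, and the window of the other start, chr10:77113656-77113955, held none of the 5 motifs.

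Fibril-associated collagens, which sit on the surface of fibrils, and transmembrane collagens did not pass 2-fold in any comparison with vehicle. Col14a1, linked to fibril spacing, was at -0.54, -0.53 and -0.58, with levels of 7.92 in vehicle and 7.37, 7.39 and 7.34 on the tamoxifen arrays. Col12a1 was at -0.35, -0.27 and 0.35 and Col16a1 at -0.08, 0.52 and 0.43. Of the transmembrane chains, Col13a1 was at 0.10, -0.04 and -0.25 and Col25a1 at -0.15, -0.42 and 0.02. Col17a1, the hemidesmosome collagen of basal keratinocytes, was below the median on every array. Col8a1, a short-chain network collagen of vessels, was at 0.00, 0.05 and 0.25, and Col8a2 had a level of 5.99 in vehicle and 5.76, 5.73 and 5.61 on the tamoxifen arrays. Col20a1 ranged from 5.80 to 6.29 and Col9a3 from 5.52 to 5.91. Col9a1, Col9a2, Col10a1, Col19a1, Col22a1 and Col26a1 were below the median on every array.

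**Figure D3:**
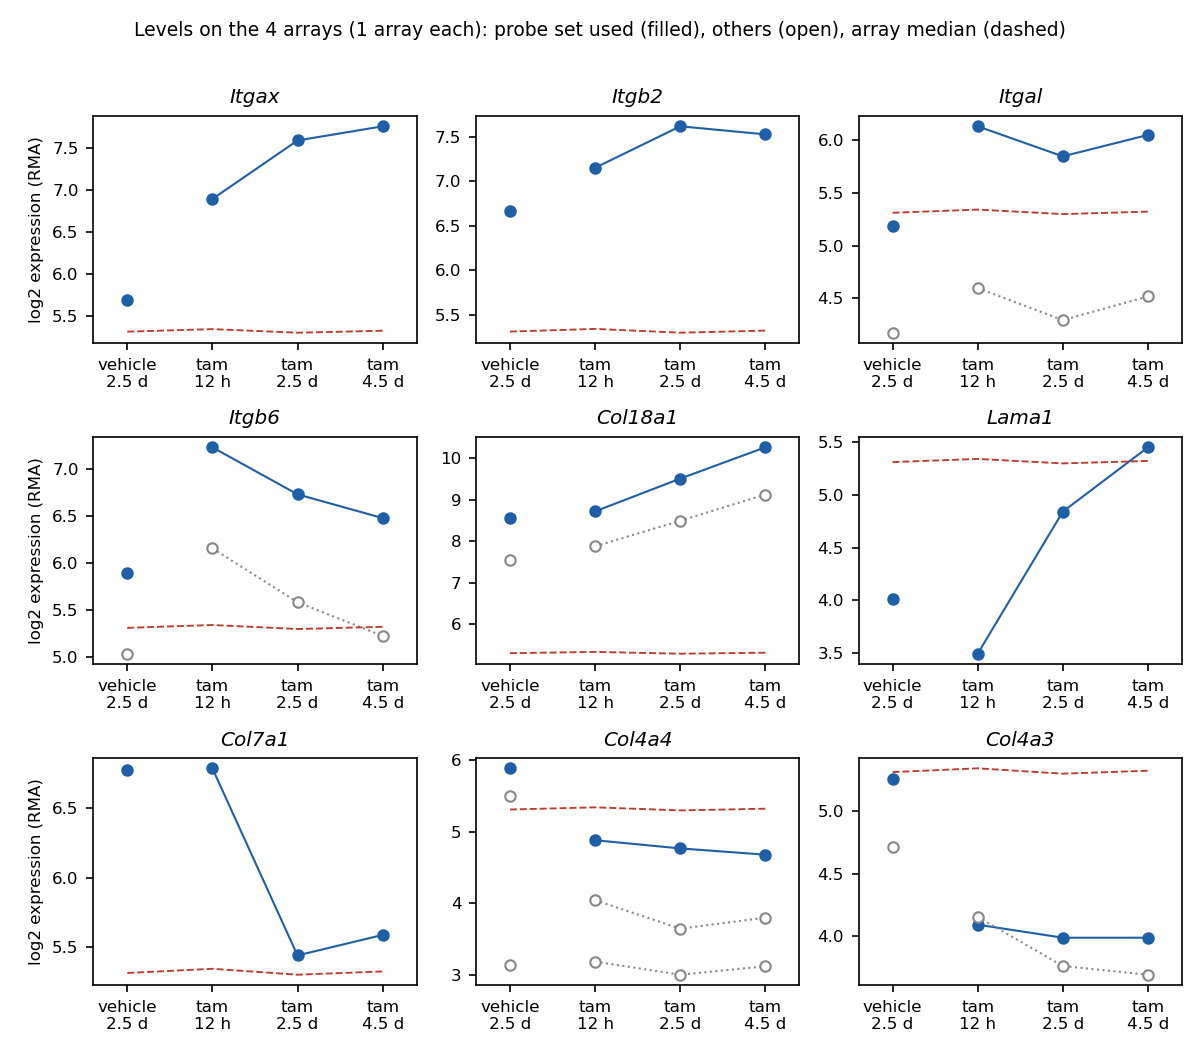
Log2 expression of 9 members on the 4 arrays, 1 array a group, with vehicle at the left and tamoxifen times joined by lines (filled, probe set used; open, other probe sets of the gene; dashed red, array median). Itgax is lowest in vehicle and highest at 4.5 days, Itgb6 is highest at 12 hours, Col18a1 climbs to 10.26, and Col4a3 and Col4a4 are highest in vehicle; each panel has its own scale.

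Laminins are trimers of an alpha, a beta and a gamma chain. The chains of the common epithelial and vascular trimers stayed near vehicle, and 1 alpha chain of another kind rose. Lama1, the alpha chain of laminin-111 and typical of embryonic basement membrane, had a level of 4.02 in vehicle and 3.50, 4.84 and 5.45 at 12 hours, 2.5 and 4.5 days. It was above the array median at 4.5 days only, where it was 1.43 above vehicle, or 2.70-fold. This rests on 1 probe set on the dim part of the scale. Among mesothelial markers Msln had 4.69 in vehicle and 4.80, 5.62 and 6.95 on the tamoxifen arrays. The others lay below vehicle at 12 hours and 2.5 days and above it at 4.5 days. Upk3b was at -0.49, -0.25 and 0.51, Wt1 at -0.53, -0.09 and 0.60 and Lrrn4 at -0.48, -0.15 and 0.20. The 4 genes of that list had medians of -0.48, -0.12 and 0.55. The log2 of their summed level was 6.83 in vehicle and 6.50, 6.98 and 7.93, with 1 marker above the array median in vehicle, none at 12 hours, 1 at 2.5 days and 2 at 4.5 days. The part of these cells in the Lama1 value was not tested.

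Lama5, Lamb1 and Lamc1 form laminin-511, a main laminin of adult epithelium. Lama5 was at 0.53, 0.16 and 0.33, Lamb1 at -0.09, 0.31 and 0.50 and Lamc1 at 0.04, 0.29 and 0.37. At 4.5 days all 3 chains lay above vehicle by less than 1.5-fold by the probe sets used. Of their other probe sets above the median at 4.5 days, those of Lamb1 gave 0.78 and 0.45 there. That of Lamc1 gave 0.69 and that of Lama5 0.54, so Lamb1 and Lamc1 passed 1.5-fold by 1 probe set each. The same Lama5 probe set gave 0.71 at 12 hours. Lamb2, the beta chain that can take the place of Lamb1, was at -0.21, -0.26 and -0.43. Lama3 and Lamb3, chains of the hemidesmosome laminin-332, were at -0.13, -0.08 and 0.26 and at 0.21, -0.20 and -0.23, and its gamma chain gene was not analysed here. Lama2, the muscle laminin, was at 0.11, 0.25 and -0.05, and Lama4, the vessel laminin, at -0.26, -0.35 and -0.29. Lamc3 was below the median on every array.

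Among integrins, Itgax lay furthest from vehicle. Itgax, which encodes CD11c of dendritic cells and macrophages, had a level of 5.68 in vehicle and 6.89, 7.59 and 7.76 at 12 hours, 2.5 and 4.5 days. All tamoxifen arrays lay above vehicle, by 1.21, 1.91 and 2.08, which is 2.32-fold, 3.76-fold and 4.23-fold. This was the largest range over the 4 arrays of any member. It was read by 1 probe set. Its RefSeq window is shown because Itgax was the 1 member counted as higher, past 2-fold, at all 3 times.
Itgax, chr7:128129300-128129599, plus strand: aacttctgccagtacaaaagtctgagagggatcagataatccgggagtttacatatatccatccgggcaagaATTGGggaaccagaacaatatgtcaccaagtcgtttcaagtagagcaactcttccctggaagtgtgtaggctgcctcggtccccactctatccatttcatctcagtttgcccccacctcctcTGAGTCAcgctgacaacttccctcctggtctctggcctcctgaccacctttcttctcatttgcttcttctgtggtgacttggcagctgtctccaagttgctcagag
The window held 1 CCAAT box and 1 AP-1 site and none of the PU.1 letters searched.

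Itgb2, the beta chain shared by leukocyte integrins, had a level of 6.66 in vehicle and 7.15, 7.62 and 7.53 on the tamoxifen arrays. Its differences of 0.49, 0.95 and 0.86 did not pass 2-fold. Itgal, the alpha chain of LFA-1, had 5.18 in vehicle and 6.13, 5.84 and 6.05, differing by 0.95, 0.66 and 0.86. Its second probe set, below the median on every array, gave 0.42, 0.12 and 0.34. Itgam, the CD11b chain, was below the median on every array, at 0.30, 0.48 and 0.18. Itga4, which pairs with beta 1 or beta 7 on lymphocytes, was at 0.24, 0.00 and 0.26, and Itgb7 at -0.11, -0.43 and -0.24. Itgae, the CD103 chain of lymphocytes lodged in epithelium, was below the median throughout, and Itga9 ranged from 5.68 to 5.97 over the 4 arrays.

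By their medians, general leukocyte and macrophage markers lay above vehicle beside these chains, though not every gene did. The 7 general leukocyte genes had medians of 0.39, 0.92 and 0.92, with 1, 2 and 2 of 7 past 2-fold higher, among them Coro1a at 1.01, 1.15 and 1.06. The log2 of their summed level was 10.84 in vehicle and 10.99, 11.45 and 11.41 on the tamoxifen arrays, with all 7 above each array's median. The 9 macrophage genes had medians of 0.35, 1.005 and 0.82, and 1, 5 and 2 of 9 were higher, among them Cd14 at 1.29, 1.16 and 1.46. Their summed level was 11.96 in vehicle and 12.07, 12.68 and 12.81 on that scale. Other genes of these lists lay below vehicle at 12 hours and near it later. The general leukocyte gene Lcp1 was at -0.38, 0.06 and 0.01. Of the macrophage genes, Csf1r was at -0.26, 0.02 and 0.27 and Adgre1 at -0.36, 0.04 and 0.20. T cell genes, 5 of 6 measured, had medians of 0.05, -0.38 and -0.20, and neutrophil genes, 5 of 6 measured, of 0.28, 0.12 and -0.30. The neutrophil genes Cxcr2, Mpo and Csf3r were below the median on every array. S100a8, at 1.36, 2.77 and 0.71, and S100a9, at -0.15, 1.12 and -0.41, were both past 2-fold higher at 2.5 days. The log2 of the summed level of the neutrophil genes was 7.02 in vehicle and 7.41, 8.32 and 6.97 on the tamoxifen arrays. The part of leukocyte RNA in the Itgax, Itgb2 and Itgal values was not tested. In bulk samples more cells of a type and more RNA per cell cannot be told apart, nor can fewer cells and less RNA per cell.

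Itgb6 was the 1 epithelial integrin chain that rose past 2-fold, and at 12 hours only. It encodes the beta chain of alpha v beta 6, which binds and activates latent TGF-beta and is low in resting epithelium. Its level was 5.90 in vehicle and 7.23, 6.73 and 6.48 at 12 hours, 2.5 and 4.5 days. The 12-hour array was highest, at 1.34 above vehicle or 2.53-fold, and the later arrays lay 0.84 and 0.58 above it. The second probe set gave 1.12, 0.55 and 0.19. The 6 epithelial markers had medians of 0.43, 0.37 and 0.44 on the same arrays. Itgav, its alpha partner, had 10.68 in vehicle and 11.16, 10.72 and 10.83, a difference of 0.49, 0.04 and 0.16. How far the pancreatic RNA and the lower squamous genes of the 12-hour array moved the Itgb6 and Itgav values was not tested. Of the other beta chains that pair with alpha v, Itgb5 was at -0.24, -0.45 and -0.51 and Itgb3 at -0.16, 0.15 and 0.06. The probe sets of Itgb5 disagreed by 0.88 at 2.5 days and by 1.003 at 4.5 days, the widest of the 22 genes compared. Its other probe sets, all above the median on every array, gave 0.18, 0.17 and 0.06 at 12 hours. At the later times 1 of them gave 0.43 and 0.49, and the others -0.15 and -0.09, and -0.19 and -0.18. The direction for Itgb5 thus depended on the probe set. Itgb2l ranged from 5.28 to 5.70, and Itgb8 was below the median on every array.

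Receptors that hold epithelium to laminin lay slightly above vehicle by the probe sets used, without passing 2-fold. Itga6 had a level of 11.06 in vehicle and 11.12, 11.32 and 11.49 at 12 hours, 2.5 and 4.5 days, and its hemidesmosome partner Itgb4 had 8.92 and 9.29, 9.31 and 9.45. Itga3, another laminin receptor, was at 0.04, 0.08 and 0.40 by the probe set used. Its other probe sets, above the median on every array, gave 0.08, -0.07 and 0.12, and -0.21, -0.26 and -0.10. The direction for Itga3 thus depended on the probe set. Itgb1, the partner of most alpha chains, was at 0.20, 0.43 and 0.33. Itga5, the fibronectin receptor chain, was at 0.50, 0.46 and 0.58. Itga2b, the platelet chain, ranged from 6.33 to 6.61. Itga1, a collagen receptor, was at -0.29, -0.11 and 0.01 by the probe set used. Its second probe set, above the median in vehicle only, gave -0.82, -1.08 and -0.97, so the Itga1 value depends on the probe set. The collagen receptor chains Itga2 and Itga10 were below the median on every array.

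Integrin chains of muscle lay below vehicle. Itga7, the laminin receptor of muscle, had 7.31 in vehicle and 7.17, 6.48 and 6.43, or -0.14, -0.83 and -0.87. Itga8, found on smooth muscle and stromal cells, had 7.33 in vehicle and 6.99, 6.76 and 6.80, or -0.34, -0.58 and -0.53. Smooth muscle markers had medians of -0.36, -0.69 and -0.65 on the same arrays, and the log2 of their summed level was 15.34 in vehicle and 14.97, 14.72 and 14.74. All 10 stayed above every array's median, and Synm, an intermediate filament gene, was at -0.35, -0.998 and -1.005. The part of smooth muscle in the Itga7 and Itga8 values was not tested.

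**Figure D4:**
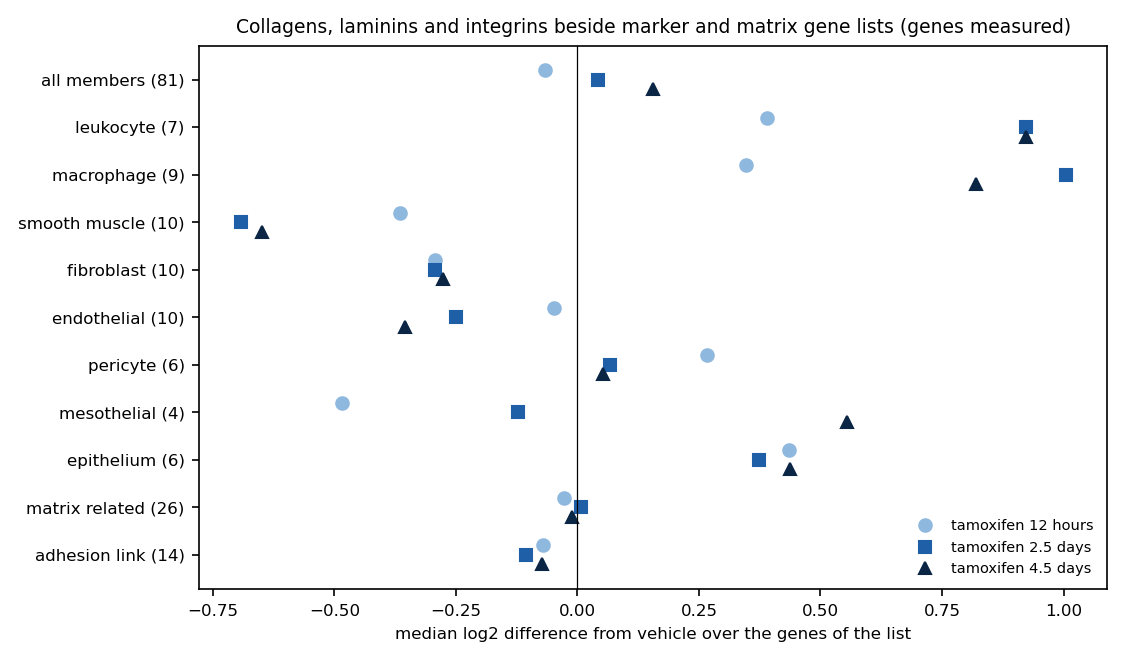
Median log2 difference from vehicle over all 81 members and over 10 of the marker and matrix gene lists, without the parietal, chief, acinar, squamous, T cell, neutrophil, mast cell, platelet and glial lists, at 12 hours, 2.5 and 4.5 days of tamoxifen, with the number of genes measured in brackets. Among the lists drawn, at 2.5 and 4.5 days leukocyte and macrophage lists lie furthest to the right and smooth muscle furthest to the left, while the members and the matrix and adhesion lists lie near 0.

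Genes that process or complete the matrix also stayed mostly within 2-fold. Of 28 such genes 26 were measured; 0 were higher and 1 lower at 12 hours and at 2.5 days, and 1 was higher and 2 lower at 4.5 days, with medians of -0.03, 0.01 and -0.01. The lower gene at each time was P4ha2, a prolyl hydroxylase subunit needed for stable collagen helices, at -1.38, -1.16 and -1.38. Tnc, the matrix glycoprotein tenascin C, was at 0.11, 0.58 and 1.21, and Vtn, vitronectin, at -0.44, -0.81 and -1.08. Nid1, which links laminin to type IV collagen, was at -0.06, 0.39 and 0.42. Of 16 genes that tie integrins to the cytoskeleton 14 were measured and none passed 2-fold, with medians of -0.07, -0.11 and -0.07. Dst, the hemidesmosome linker, was at -0.42, -0.74 and -0.77 and Zyx, of focal adhesions, at 0.36, 0.52 and 0.68.

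Of the 4 genes with a related name, Itgb3bp, a centromere protein, was at -0.66, 0.42 and 0.26, and its step from 12 hours to 2.5 days was 1.07. Itgb1bp1, which binds the tail of integrin beta 1, was at -0.12, 0.16 and -0.01, and Itgb1bp2 and Itgbl1 were below the median on every array.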

How the data were processed

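Gene expression was measured with 1-colour Affymetrix mouse arrays, 1 for each of 3 tamoxifen times and 1 for vehicle. The authors deposited log2 expression for 45101 probe sets; RMA and Partek are named in the submitters' processing notes, with their versions not given in the sources used here. The log base was inferred from values between 2.06 and 14.85. Quantile normalization within RMA hides a shift shared by most genes.

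The 64 control probe sets were left out. Probe sets with exactly 1 symbol in the platform annotation, 34945, gave 18193 genes; those with several symbols, 932, were not used. The symbols of all 81 members matched the current RefSeq table. Differences of log2 values were taken with Python 3.11.15 and pandas 2.3.3, and the rule for calls was tested on simulated data. A second rule at 1.5-fold was used for steps between tamoxifen arrays.

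Named genes were all members past 2-fold, the 2 brightest of each class, and chains that assemble together; of other lists, up to 4 with the largest differences. A few more were named after their values were seen. The 19 gene lists held 165 genes, 155 of them measured. Members and lists were chosen with earlier results of these data known. Alternatives were other probe sets, filters, a centring, other members and another fold.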

Additional observations from a re-analysis of the deposited data

Results flagged for a closer look

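Col1a1, Col5a1 and Itgb3bp lay below vehicle at 12 hours by the probe sets used and above it at 2.5 days, each time by more than the robust SD of expressed genes in that comparison. For Col1a1 the difference from vehicle was 0.996 higher at 2.5 days than at 12 hours, and 0.95 higher at 4.5 days than at 12 hours. Its second probe set gave 0.56 for 2.5 days against 12 hours. For Col5a1 it was 0.86 higher at 2.5 days than at 12 hours, where its other 2 probe sets gave 0.09 and 0.36 and 1 of them lay 0.30 above vehicle at 12 hours. For Itgb3bp it was 1.07 higher at 2.5 days than at 12 hours. With 1 array a group, these differences between times were not tested.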

How the results depend on the processing

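No replicate could be left out and no test made, as each group is 1 array of pooled RNA. No paired analysis was possible because each group has 1 array. Centring on hybridisation controls moved every difference from vehicle by -0.04, 0.13 and 0.16 at 12 hours, 2.5 and 4.5 days, and the step from 12 hours to 2.5 days by 0.17. It gave 3 members higher and 1 lower at 2.5 days, 6 higher at 4.5 days with a median of 0.32, and in the step from 12 hours to 2.5 days 14 higher and 1 lower. The same shift moves all other genes, and their share past the limit was not computed under centring. These counts therefore have no background and are not a result about the members. The filter at the 75th percentile, which tests fewer genes, left 0 higher at 12 hours, 0 lower at 12 hours, 2.5 and 4.5 days and 0 lower in both steps, with medians of 0.23 and 0.33 at 2.5 and 4.5 days. Without a filter 2 were lower at 12 hours. The mean over all probe sets gave 0, 1 and 1 lower at the 3 times and 0 lower from 2.5 to 4.5 days. Taking each gene's middle probe set by size of difference gave 5 higher from 12 hours to 2.5 days and 0 lower from 2.5 to 4.5 days, and a median of 0.01 at 12 hours, against -0.07. With 1.5-fold, 4, 6 and 6 members were higher at the 3 times and 2 lower at 12 hours. With 2-fold, 1 was higher and 1 lower from 12 hours to 2.5 days, and 0 either way from 2.5 to 4.5 days. For moves beyond those shown by a setting's construction, the cause was not tested. The comparisons of steps were added after seeing the data. No difference of a named member past 2-fold changed sign under the 4 settings run for it. For Itgax, Lama1 and Col7a1, with 1 probe set each, the settings that choose or average probe sets could not change the value. Centring moved differences by too little to turn the sign of any past 2-fold. For these genes the unchanged sign is therefore no check. Dim genes such as Lama1, Col4a3 and Col4a4 limit what these arrays show.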

Other observations

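Marker lists not set beside a result above had these medians at 12 hours, 2.5 and 4.5 days against vehicle: endothelial genes -0.05, -0.25 and -0.35, pericyte genes 0.27, 0.07 and 0.05, mast cell genes 0.22, 0.33 and 0.71, and platelet genes 0.04, 0.00 and -0.09. Glial genes, 4 of 6 measured, were at 0.13, -0.29 and -0.15. Parietal genes were at -1.83, -1.95 and -1.22, chief cell genes at -0.21, -1.68 and -2.44, and pancreatic acinar genes at 7.21, -0.33 and -0.47. Of the endothelial list Kdr, a VEGF receptor gene, was at -0.66, -1.02 and -0.76. A GC box stood in 53.8% of the 65 windows of the members, and in 35.7% of all windows. For the CCAAT box these shares were 27.7% and 37.4%, and for the TATA box 7.69% and 13.6%. For the AP-1 site they were 6.15% and 7.81%, and for the PU.1 site 6.15% and 3.20%. Some members had more than 1 window, the windows of Col4a1 and Col4a2 overlap, and no difference in shares was tested.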
